A study of Mus musculus with 16 samples.

Results

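The genes described here are 36 mouse genes of the unfolded protein response, the chaperones of the endoplasmic reticulum (ER) and ER-associated degradation (ERAD). They were listed by name, as genes of this system, out of 46882 genes in the count tables, and all 36 were among the 16001 genes with enough reads to be tested. They were measured in 16 bulk RNA sequencing libraries of sorted intestinal epithelium from RedMUC298trTg mice aged 6 to 8 weeks, a transgenic line in which the red fluorescent protein mCherry marks goblet cells. All 4 groups carried this transgene, whose promoter is not given in the sources used here, and a C57Bl6 mouse was the negative control of the sort. The groups were goblet cells (mCherry-positive) of the distal colon, the mCherry-negative epithelial cells beside them (named colonocytes in the labels), goblet cells of the 8th section of the small intestine, and the mCherry-negative cells of that section (named enterocytes). With 4 libraries each, they are named DC goblet and DC other cells and Si8 goblet and Si8 other cells below. The comparisons set goblet cells against their neighbours and the colon against the small intestine. Whether each library had its own mouse is not stated, so the p-values measure the spread between libraries, which may be technical. The labels name no treatment and no ER stressor.

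Goblet cells fill their ER with large mucin precursors that must be folded, disulfide-bonded and glycosylated before they leave. When unfolded protein accumulates in the ER, the membrane sensors IRE1, PERK and ATF6 signal to the nucleus. IRE1 splices the mRNA of the transcription factor XBP1, ATF6 is cut in the Golgi to release a transcription factor, and PERK phosphorylates the initiation factor eIF2α, which lowers translation in general and favours that of the factor ATF4. XBP1 and ATF6 raise the genes of chaperones and of ERAD, the route that returns misfolded protein to the cytosol for the proteasome. IRE1 has another form, IRE1β, made by Ern2, which is known from the epithelium of the gut and airway and from mucous cells in particular. The counts analysed are sums over whole genes, so they do not separate spliced from unspliced Xbp1 mRNA and do not measure the activity of a sensor.

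The promoters of several members hold short elements through which these factors are known to act, and the stretches that hold them are printed because the results are read against them. The ER stress element (ERSE) was searched as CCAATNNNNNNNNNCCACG, the element ERSE-II as ATTGGNCCACG, the core of the unfolded protein response element (UPRE) as TGACGTG and the core of the C/EBP-ATF response element (CARE), the site of ATF4, as TGATGNAA, on both strands of the window from 250 bases before to 50 bases after the start in RefSeq's GRCm38.p6 promoters. Of the 36 members, 30 matched a promoter in that table. ERSE was found in 8 of the 30 (Hspa5, Hsp90b1, Calr, Canx, Dnajc3, Creld2, Derl3 and Syvn1) and in 39 of all 32851 promoters (0.119%). ERSE-II was found in Herpud1 and Dnajb11 and in 12 promoters in all (0.0365%), the UPRE core in Hspa5 and in 661 promoters (2.01%), and CARE in Asns, Chac1, Herpud1 and Trib3 and in 1304 promoters (3.97%). A match is a description of these letters and does not show that a factor binds there. The next lines run 5′ to 3′ along the gene's own strand, in lower case with the fixed letters of each element in capitals. An element on the opposite strand reads as its reverse complement, with CGTGG first in ERSE.
Hspa5 (ERSE): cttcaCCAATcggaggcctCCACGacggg
Hsp90b1 (ERSE, 2 matches): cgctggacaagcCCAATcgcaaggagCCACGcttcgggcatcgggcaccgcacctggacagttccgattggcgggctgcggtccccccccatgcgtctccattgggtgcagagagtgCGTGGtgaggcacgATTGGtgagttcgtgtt
Calr (ERSE): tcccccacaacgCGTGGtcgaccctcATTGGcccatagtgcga
Canx (ERSE): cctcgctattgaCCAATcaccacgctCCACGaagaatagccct
Dnajc3 (ERSE): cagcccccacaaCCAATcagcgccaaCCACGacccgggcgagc
Creld2 (ERSE): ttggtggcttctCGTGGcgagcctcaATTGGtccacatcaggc
Derl3 (ERSE): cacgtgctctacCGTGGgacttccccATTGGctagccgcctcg
Syvn1 (ERSE): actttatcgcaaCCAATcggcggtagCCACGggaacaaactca
Herpud1 (CARE, then ERSE-II): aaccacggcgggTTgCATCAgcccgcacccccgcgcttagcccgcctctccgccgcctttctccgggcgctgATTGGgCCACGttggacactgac
Hspa5 (UPRE core): agcaaTGACGTGagttg
Asns (CARE): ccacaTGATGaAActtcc
Chac1 (CARE): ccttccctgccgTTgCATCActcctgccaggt
In GRCm38.p6 these stretches lie at chr2:34772020-34772048 (+ strand) for the ERSE and chr2:34771928-34771944 (+ strand) for the UPRE core of Hspa5, and at chr10:86705521-86705668 (- strand) for Hsp90b1. Those of the other ERSE genes lie at chr8:84847063-84847105 (- strand) for Calr, chr11:50325788-50325830 (- strand) for Canx, chr14:118937815-118937857 (+ strand) for Dnajc3, chr15:88819508-88819550 (+ strand) for Creld2, chr10:75893230-75893272 (+ strand) for Derl3 and chr19:6046520-6046562 (+ strand) for Syvn1. The stretch of Herpud1 lies at chr8:94386305-94386399 (+ strand), that of Asns at chr6:7693220-7693237 (- strand) and that of Chac1 at chr2:119351037-119351068 (+ strand). The matches of Dnajb11 and Trib3 lie after the start and are not printed. The stretches of the Hspa5 ERSE and of Asns lie before the RefSeq start but overlap exons of these genes in GENCODE.

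The libraries differed in ways that touch the results. Total counts were 11915081 to 18530171 per DC library and 30839377 to 41075589 per Si8 library, and mitochondrially encoded genes took 0% of the counts in DC and 3.19% to 8.36% in Si8. Library numbers ran from 9 to 18 in DC and from 1 to 8 in Si8, and each region had its own count table. Region, depth, mitochondrial counts, library numbers and count table thus split the libraries in the same way and cannot be told apart. RNA of goblet cells and of other cells was purified on different columns (MinElute and Mini), so cell type and column cannot be told apart. All 8 goblet cell markers were higher in the goblet sort in both regions, with summed levels, as counts scaled to a common library total (CPM), of 446 to 588 in DC other and 38562 to 43629 in DC goblet cells, and of 125831 to 286860 against 311 to 790 in Si8. All 9 Paneth cell markers were also higher in Si8 goblet cells, with summed levels of 13279 to 36022 CPM against 747 to 2006 in Si8 other cells, while in DC 5 of 9 were higher and the sums stayed at 35.1 to 38.9 against 0.578 to 1.19. Of 10 absorptive cell markers, 7 were lower in DC goblet cells and 9 in Si8 goblet cells. All 8 enteroendocrine markers were lower in both goblet sorts, and of the 7 intraepithelial lymphocyte markers 3 were lower in DC and 7 in Si8. Plasma and B cell markers, of interest because these cells also hold a large ER, summed to 0.139 to 0.588 CPM in DC goblet cells, 0.713 to 1.87 in DC other cells, 3.23 to 4.02 in Si8 goblet cells and 29.6 to 75.6 in Si8 other cells. Of 5 myeloid markers 3 were lower and 1 higher in DC goblet cells and 2 were lower in Si8 goblet cells, of 5 tuft cell markers tested 1 and 2 were lower, and of 2 stromal markers tested 2 and 1. The part of these other cells in the results was not tested, and in bulk samples fewer cells of a type and less RNA per cell cannot be told apart. By the test given below, 27.8% of all genes were higher and 27.9% lower in DC goblet cells, and 33.1% and 31.8% in Si8.

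Levels below are CPM on TMM-scaled totals, in the order of the library numbers in the labels, and changes are log2 fold changes ± SE. They were tested with edgeR's quasi-likelihood test in 1 fit of all 16 libraries, with Benjamini-Hochberg adjusted p over the 16001 genes and a call at an adjusted p under 0.05. In the distal colon, 34 of the 36 genes were higher in goblet cells, 0 were lower, and 2 did not pass the test (Ppp1r15a and Dnajb9, with unadjusted p of 0.489 and 0.174). DESeq2 also called 34 higher and 0 lower. Across all tested genes 27.8% were called higher and 27.9% lower in that comparison. The median log2 fold change was 1.11 over the 36 genes and 0.03 over all genes. A change of at least 2-fold, a log2 of 1 or more, was found for 19 of them, against 9.16% of all genes. In Si8, 28 were higher, 2 were lower (Syvn1 and Wfs1) and 6 did not pass (Ppp1r15a, Trib3, Canx, Dnajb9, Sel1l and Os9), where 33.1% of all genes were called higher and 31.8% lower. The median was 0.59 over the 36 genes and 0.03 over all genes, and 8 members were higher with a log2 of 1 or more, against 8.92% of all genes.

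**Figure D1:**
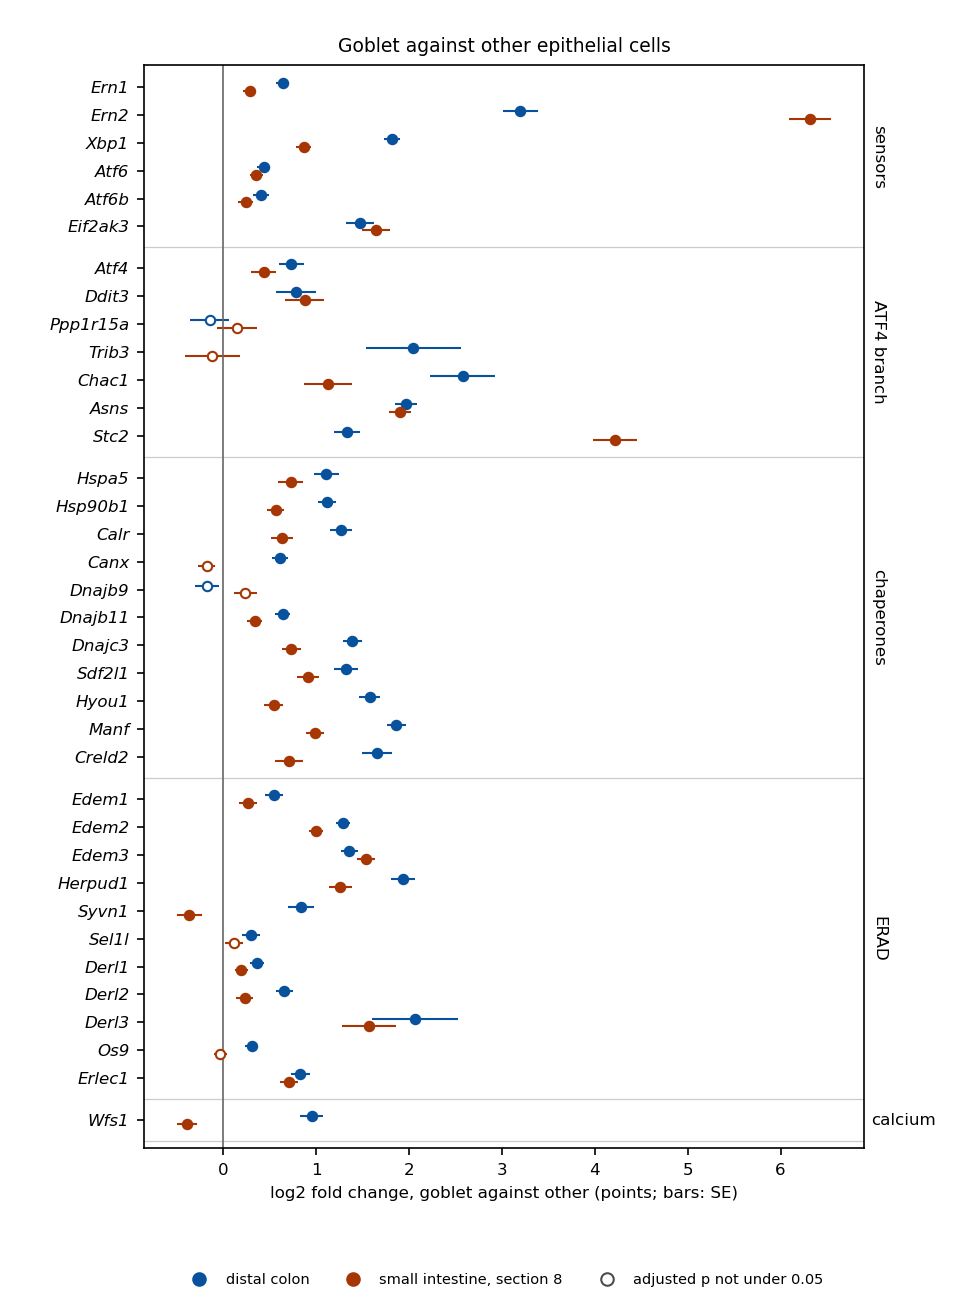
Log2 fold change of goblet against other epithelial cells for each of the 36 genes (points, with bars of 1 SE), in the distal colon (blue) and in section 8 of the small intestine (brown), grouped by role; open points did not reach an adjusted p under 0.05. The distal colon points lie above 0 for 34 genes, and Ern2 (6.32) and Stc2 (4.22) stand farthest to the right in the small intestine.

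The sensors and XBP1 were higher in goblet cells of both regions, 6 of 6 in each. Of all genes 27.8% were higher in DC goblet cells and 33.1% in Si8 goblet cells. The sizes of the changes in these 6 genes differed widely, from 0.24 for Atf6b in Si8 to 6.32 for Ern2 in Si8. Ern2, which encodes IRE1β (chr7:122169893-122186207 in GRCm38), had 40.2, 35.0, 39.3 and 38.7 CPM in DC other cells and 357, 345, 337 and 369.6 in DC goblet cells. In Si8 it had 4.80, 1.99, 4.09 and 2.01 CPM in other cells and 219, 239, 313 and 244 in goblet cells. Goblet and other libraries were far apart in both regions, the DC goblet libraries were the highest, and the Si8 other libraries the lowest by far. The log2 fold change was 3.20 ± 0.19 in DC (adjusted p = 1.99e-10) and 6.32 ± 0.23 in Si8 (adjusted p = 3.32e-13). These are 9.18-fold and 79.8-fold. Between regions, Ern2 was 12.1-fold higher in DC other cells than in Si8 other cells (log2 3.59 ± 0.21, adjusted p = 9.71e-11) and 1.39-fold higher in DC goblet than in Si8 goblet cells (log2 0.47 ± 0.17, adjusted p = 0.0259). The latter call was lost without DC other library 12, DC goblet library 9 or 18, or Si8 goblet library 2, with adjusted p from 0.0513 to 0.0729, and with no filter on low counts (0.41, adjusted p = 0.0880).

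Ern1, which encodes the widely expressed form IRE1α, moved far less. It had 55.0, 62.9, 54.2 and 56.9 CPM in DC other cells and 93.6, 92.7, 80.5 and 89.5 in DC goblet cells, and 59.8, 62.9, 59.4 and 65.4 in Si8 other cells and 71.0, 75.2, 75.1 and 79.5 in Si8 goblet cells. The libraries of the sorts did not overlap in either region, and the log2 fold changes were 0.64 ± 0.07 in DC (adjusted p = 2.60e-07) and 0.28 ± 0.07 in Si8 (adjusted p = 0.00172). Per kilobase of exon, the scale on which the levels of 2 genes can be set side by side, the Ern2 level was a median of 10.95 times that of Ern1 over the DC goblet libraries (10.3 to 11.5) and 8.65 times over the Si8 goblet libraries (8.46 to 11.5). In other cells the same ratio was 1.94 in DC (1.54 to 2.02) and 0.139 in Si8 (0.0847 to 0.221). Ern2 was thus the more abundant form in both goblet sorts and in DC other cells, and Ern1 in Si8 other cells, and this order was the same with the length of the longest transcript in place of merged exons.

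Xbp1 (chr11:5520659-5525893), the transcription factor whose mRNA IRE1 splices, had 154, 131, 137 and 138 CPM in DC other cells and 507, 486, 448 and 524 in DC goblet cells. In Si8 it had 203, 218, 224 and 220.2 CPM in other cells and 362, 369, 447 and 399 in goblet cells. Every goblet library was above every other-cell library of both regions. The log2 fold change was 1.81 ± 0.08 in DC (adjusted p = 7.31e-13) and 0.87 ± 0.08 in Si8 (adjusted p = 2.16e-08). Eif2ak3, which encodes PERK, had 88.2, 93.4, 76.3 and 90.3 CPM in DC other and 279, 229, 197 and 262 in DC goblet cells, and 65.4, 55.8, 73.4 and 77.3 in Si8 other and 159.8, 182, 276 and 231 in Si8 goblet cells. The sorts did not overlap, and it was 2.78-fold higher in DC goblet cells (log2 1.47 ± 0.15, adjusted p = 1.69e-07) and 3.12-fold higher in Si8 goblet cells (log2 1.64 ± 0.15, adjusted p = 3.38e-08). In GENCODE, 8.05% of its exon bases overlap a gene on the opposite strand, and the strand setting of the counting is not given in the sources used here. Atf6 and its relative Atf6b, the sensors that are cut in the Golgi, had small changes without overlap of the libraries. Atf6 rose by 0.43 ± 0.07 in DC and 0.36 ± 0.07 in Si8 on the log2 scale, and Atf6b by 0.40 ± 0.09 and 0.24 ± 0.08. The Si8 call of Atf6b was lost without Si8 goblet library 4 (adjusted p = 0.0542), and with DESeq2 (adjusted p = 0.0568).

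**Figure D2:**
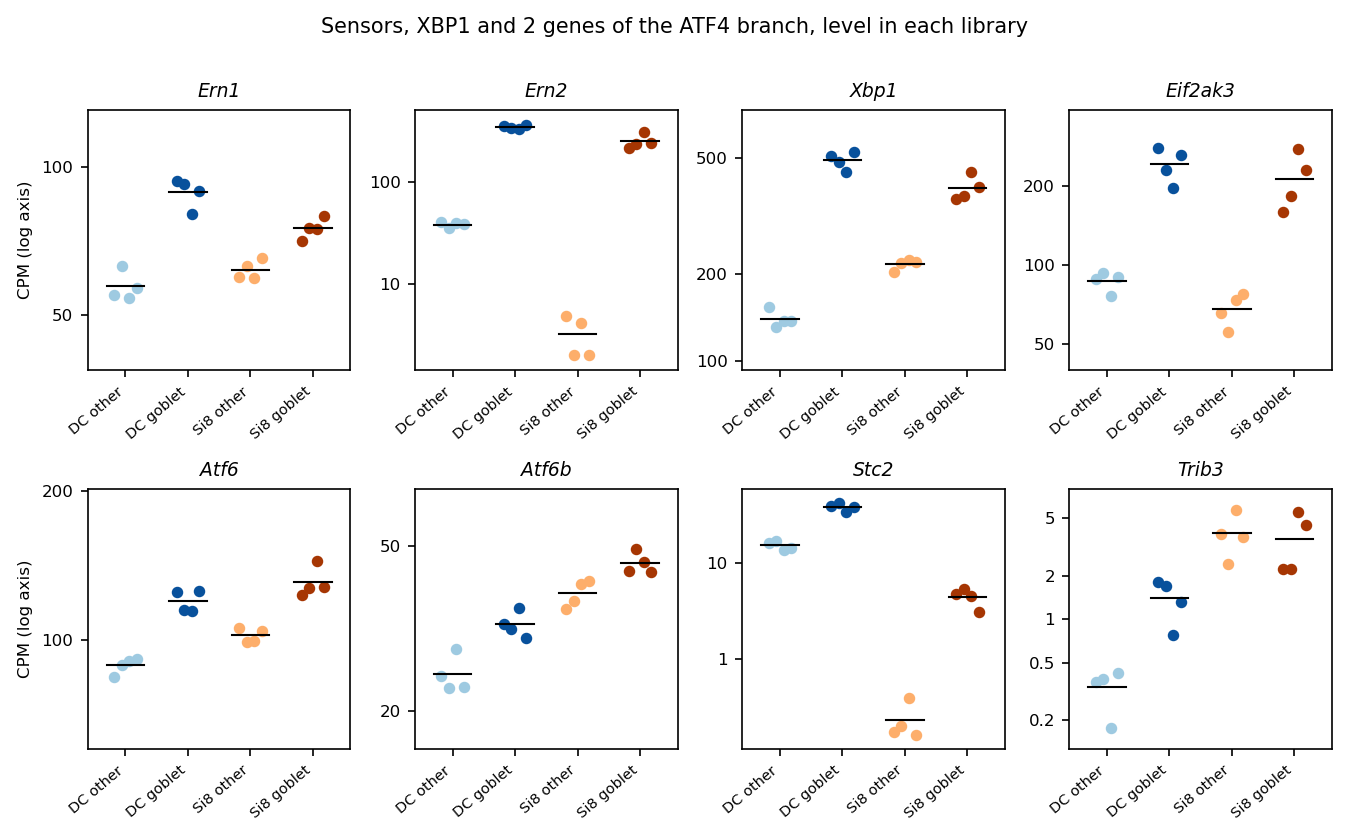
Level of 8 genes in each library (CPM, log axis; points are libraries, black lines the mean of 4) for DC other, DC goblet, Si8 other and Si8 goblet cells. Ern2 and Stc2 are lowest in Si8 other cells (Ern2 1.99 to 4.80 CPM), Xbp1 and Eif2ak3 are higher in all goblet libraries of a region, and Trib3 differs between the sorts in the colon and overlaps in Si8.

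The genes of the PERK and ATF4 branch split into those that were higher in goblet cells and those that were not. In DC 6 of 7 were higher, all but Ppp1r15a, and in Si8 5 of 7, all but Ppp1r15a and Trib3. Of all genes 27.8% and 33.1% were higher. Asns, the asparagine synthetase gene with a CARE match in its promoter, had 22.5, 19.1, 20.1 and 18.5 CPM in DC other cells and 83.9, 75.2, 76.3 and 78.9 in DC goblet cells, and 38.5, 42.2, 32.9 and 25.4 in Si8 other cells and 125, 119.8, 137 and 137 in Si8 goblet cells. Its log2 fold change was nearly the same size in the 2 regions, 1.97 ± 0.12 in DC (adjusted p = 4.24e-11) and 1.90 ± 0.12 in Si8 (adjusted p = 3.92e-11). The difference between these was 0.07 ± 0.16 and did not pass the test (adjusted p = 0.783). Chac1, a glutathione-degrading enzyme, had 1.31, 1.42, 0.772 and 1.81 CPM in DC other and 8.75, 10.97, 4.13 and 7.79 in DC goblet cells, and 6.19, 9.83, 7.90 and 5.57 in Si8 other and 10.1, 15.5, 21.6 and 17.6 in Si8 goblet cells. The DC other libraries held only 25, 22, 13 and 30 counts of this gene. Chac1 was 5.96-fold higher in DC goblet cells (log2 2.58 ± 0.35, adjusted p = 8.64e-06) and 2.18-fold higher in Si8 goblet cells (log2 1.13 ± 0.26, adjusted p = 0.0013).

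Trib3, a pseudokinase that is a target of ATF4 and CHOP, was near the floor of the colon data. It had 7, 6, 3 and 7 counts in the DC other libraries and 33, 37, 15 and 18 in the DC goblet libraries. On the CPM scale these were 0.368, 0.389, 0.178 and 0.423 in DC other and 1.81, 1.71, 0.785 and 1.32 in DC goblet cells, against 3.90, 2.44, 5.75 and 3.69 in Si8 other and 2.22, 2.23, 5.59 and 4.49 in Si8 goblet cells. The DC groups did not overlap (log2 2.04 ± 0.51, adjusted p = 0.00224) and the Si8 groups overlapped throughout (log2 -0.12 ± 0.30, adjusted p = 0.737). The difference between the 2 goblet changes was 2.17 ± 0.59 (adjusted p = 0.009), with low counts in the DC libraries. Stc2 (chr11:31357307-31370074), a secreted glycoprotein that is induced in ER stress, had the larger goblet change in Si8. It had 16.1, 16.7, 13.4 and 14.1 CPM in DC other and 38.7, 41.9, 33.6 and 37.9 in DC goblet cells, 0.174, 0.201, 0.39 and 0.162 in Si8 other and 4.68, 5.30, 4.47 and 3.04 in Si8 goblet cells, where the Si8 other libraries held 5, 8, 12 and 5 counts. The log2 fold change was 1.33 ± 0.14 in DC and 4.22 ± 0.23 in Si8 (adjusted p = 9.97e-08 and 1.01e-11), and all DC libraries were above all Si8 libraries.

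Atf4, Ddit3 and Ppp1r15a varied between libraries of 1 group along with genes of the early response. Atf4 had 325, 317, 241 and 318 CPM in DC other and 541, 507, 377 and 565 in DC goblet cells, and 219, 293, 260.1 and 234 in Si8 other and 279, 384, 365 and 329.8 in Si8 goblet cells. Ddit3, which encodes CHOP and shares 4.73% of its exon bases with genes on the opposite strand, had 41.4, 43.3, 29.6 and 37.8 CPM in DC other and 79.7, 69.6, 44.9 and 67.8 in DC goblet cells, and 21.7, 33.9, 33.2 and 32.4 in Si8 other and 34.4, 66.7, 66.8 and 54.5 in Si8 goblet cells. Libraries 14 and 13 were the lowest of their groups in DC, and libraries 1 and 2 the lowest of theirs in Si8, for both genes. The sorts overlapped for Atf4 in Si8 and not otherwise. Atf4 was higher in goblet cells by 0.73 ± 0.13 in DC (adjusted p = 1.17e-04) and 0.43 ± 0.13 in Si8 (adjusted p = 0.00808), and Ddit3 by 0.78 ± 0.21 (adjusted p = 0.0053) and 0.87 ± 0.21 (adjusted p = 0.00184). Ppp1r15a, which encodes GADD34, the phosphatase subunit that reverses the phosphorylation of eIF2α, had 215, 239.5, 139 and 208 CPM in DC other and 203, 199.8, 104 and 216 in DC goblet cells, and 52.0, 65.5, 71.7 and 60.3 in Si8 other and 52.0, 82.3, 74.4 and 67.4 in Si8 goblet cells. The sorts overlapped in both regions (log2 -0.15 ± 0.21 and 0.15 ± 0.21, adjusted p = 0.572 and 0.56). With adjacent library numbers as a block, the DC value passed as lower (-0.17, adjusted p = 0.0404). The regions did not overlap, and Ppp1r15a was higher in DC by 1.39 ± 0.21 in goblet cells and by 1.68 ± 0.22 in other cells (adjusted p = 3.26e-05 and 3.26e-06). A list of 13 early response and dissociation genes, among them Fos, Jun, Egr1 and Atf3, moved in the same libraries. Its summed level was 8243 to 11866 CPM in DC other cells, lowest in library 14, and 5749 to 9854 in DC goblet cells, lowest in library 13. In Si8 it was 2970 to 4276 CPM in other cells, lowest in library 1, and 3771 to 6247 in goblet cells, lowest in library 2. Of the 13 genes 3 were higher in DC goblet cells and 7 in Si8 goblet cells, and between regions 9 were higher in DC other cells and 7 in DC goblet cells, and 1 was lower in each. Of all genes 27.8% were higher in DC goblet cells and 33.1% in Si8 goblet cells. Between regions 33.3% were higher and 33.6% lower in DC other cells, and 30.6% and 31.5% in DC goblet cells. The part of this list in the levels of Atf4, Ddit3 and Ppp1r15a was not tested.

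**Figure D3:**
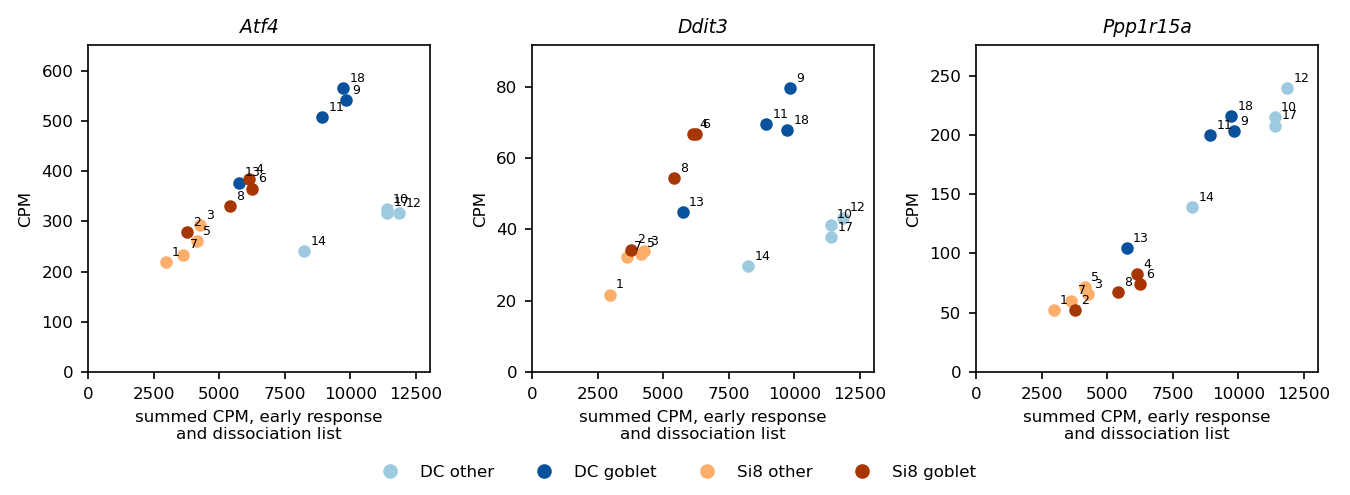
CPM of Atf4, Ddit3 and Ppp1r15a in each of the 16 libraries against the summed CPM of 13 early response and dissociation genes in the same library; numbers are the library numbers and colours the 4 groups. Within each group the library lowest on the x axis (14, 13, 1 and 2) is also the lowest for Atf4 and Ddit3, and the DC other libraries sum to 8243 to 11866 CPM with Atf4 at 241 to 325 CPM.

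Most chaperones and co-chaperones were higher in goblet cells of both regions, all but Dnajb9 in DC and all but Dnajb9 and Canx in Si8. For 8 of 11 the change was larger in the colon by the test of the difference given below, against 15.6% of all genes. In DC 10 of 11 chaperones and co-chaperones were higher, 8 of them with a log2 of 1 or more, with a median of 1.27. In Si8 9 of 11 were higher, none with a log2 of 1 or more, with a median of 0.63. The shares of all genes called higher were 27.8% in DC and 33.1% in Si8. With a log2 of 1 or more they were 9.16% and 8.92%. Hspa5 (chr2:34771970-34777547), which encodes BiP, the ER chaperone that also holds the sensors inactive, had 1235, 1152, 974 and 977 CPM in DC other cells and 2859.8, 2091, 2068 and 2342 in DC goblet cells. In Si8 it had 1316, 1654, 1702 and 1606 CPM in other cells and 2084, 2436, 3047 and 2821 in goblet cells. The sorts did not overlap within a region, and the 2 goblet groups overlapped each other. Hspa5 was 2.16-fold higher in DC goblet cells (log2 1.11 ± 0.14, adjusted p = 8.32e-07) and 1.65-fold higher in Si8 goblet cells (log2 0.73 ± 0.13, adjusted p = 1.05e-04). Hsp90b1, which encodes GRP94, and Calr, the lectin chaperone calreticulin, were also higher, with 1.12 ± 0.10 and 0.56 ± 0.10 for Hsp90b1 and 1.27 ± 0.12 and 0.63 ± 0.12 for Calr in DC and Si8. For Hsp90b1, 10.3% of the exon bases overlap a gene on the opposite strand and 5.38% one on the same strand.

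Calnexin, the membrane-bound partner of calreticulin, was higher in DC goblet cells and did not pass the test in Si8. Canx had 534, 461, 555 and 530.0 CPM in DC other and 817, 729.7, 803 and 825 in DC goblet cells, and 1312, 1200.3, 1099 and 1184 in Si8 other and 1167, 959, 1022 and 1081 in Si8 goblet cells. The DC groups did not overlap (log2 0.61 ± 0.09, adjusted p = 7.41e-06), whereas the Si8 groups did, with the goblet libraries on the low side (log2 -0.18 ± 0.09, adjusted p = 0.0769). The Si8 value passed the test with DESeq2 (-0.23, adjusted p = 0.00947), with DESeq2-type factors in edgeR (adjusted p = 0.0248), with the block (-0.18, adjusted p = 0.0165), and without Si8 other library 5 or Si8 goblet library 2 (adjusted p = 0.0438 and 0.0374). Hyou1, the exchange factor GRP170 that serves BiP, had 175, 136, 144 and 129 CPM in DC other and 518, 382, 419.6 and 418 in DC goblet cells, and 408, 478, 480.2 and 457 in Si8 other and 593, 658, 726 and 673 in Si8 goblet cells. Its log2 fold change was 1.57 ± 0.11 in DC and 0.54 ± 0.11 in Si8 (adjusted p = 2.71e-10 and 2.04e-04). The DC other libraries were the lowest, and the levels of DC goblet cells overlapped those of Si8 other cells.

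Small secreted and luminal factors were higher in both regions. Manf, a secreted ER stress factor that binds BiP, had 78.3, 60.1, 74.7 and 55.2 CPM in DC other and 275, 230.2, 232 and 239 in DC goblet cells, and 129.9, 144, 147 and 133 in Si8 other and 266, 260.2, 297 and 272 in Si8 goblet cells, with log2 fold changes of 1.86 ± 0.10 and 0.98 ± 0.10. It had the largest DC change of the chaperone list, and 8.85% of its exon bases overlap a gene on the opposite strand. Creld2 rose by 1.65 ± 0.16 in DC and 0.71 ± 0.15 in Si8, Sdf2l1 by 1.32 ± 0.13 and 0.91 ± 0.12, and the BiP co-chaperone Dnajc3 (p58IPK) by 1.39 ± 0.10 and 0.73 ± 0.10, on the log2 scale. The co-chaperone Dnajb11 (ERdj3) changed less, 0.64 ± 0.08 and 0.34 ± 0.08. Dnajb9 (ERdj4), a BiP co-chaperone that acts on IRE1 and in ERAD, was the exception. It had 76.0, 92.5, 67.6 and 84.4 CPM in DC other and 78.7, 67.1, 58.9 and 78.5 in DC goblet cells, and 51.9, 45.8, 49.5 and 52.5 in Si8 other and 51.6, 48.6, 60.5 and 74.6 in Si8 goblet cells. The sorts overlapped in both regions, with log2 fold changes of -0.18 ± 0.13 (adjusted p = 0.242) and 0.24 ± 0.13 (adjusted p = 0.107). The Si8 value of Dnajb9 passed the test without Si8 goblet library 4 (0.32, adjusted p = 0.0342), with the block (0.22, adjusted p = 0.0241) and with no filter on low counts (0.26, adjusted p = 0.0190).

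**Figure D4:**
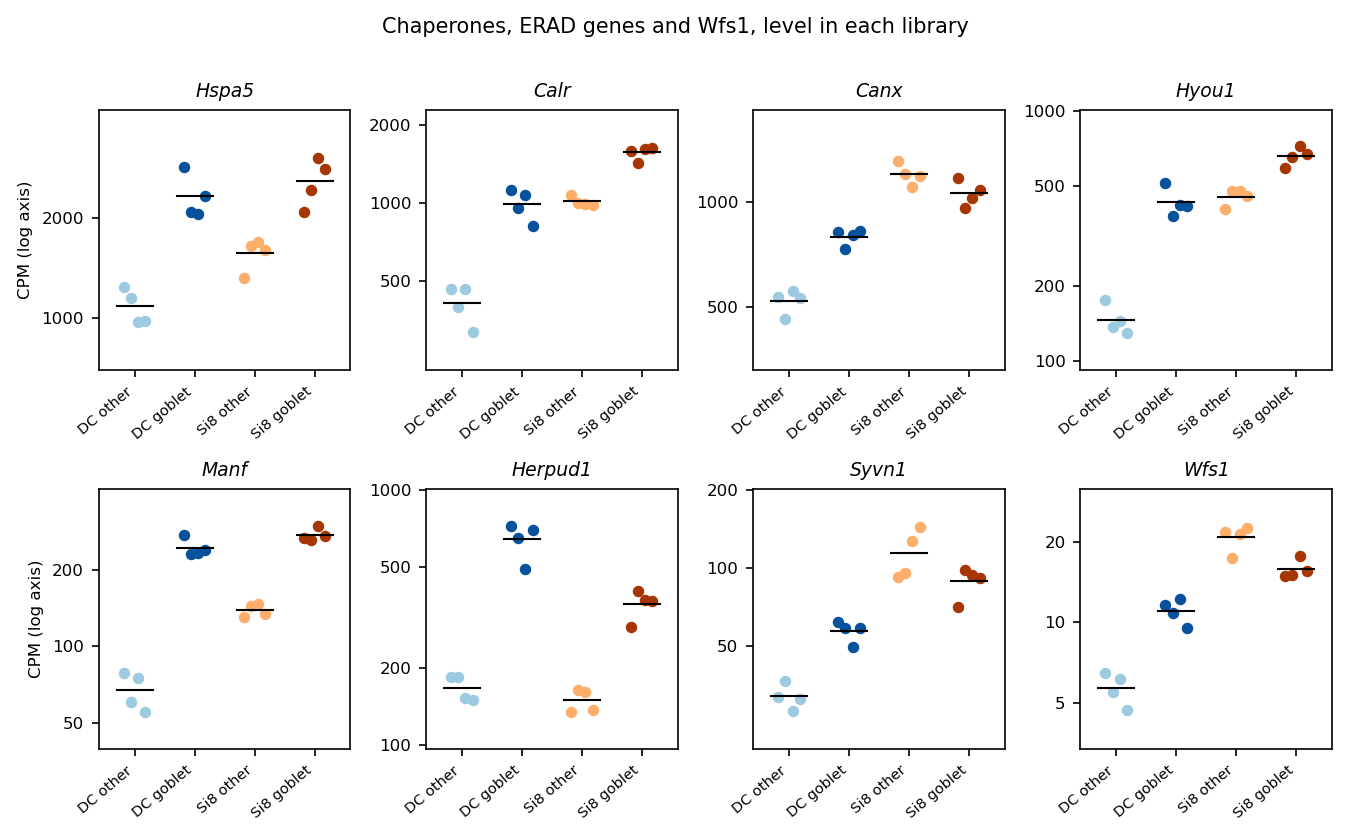
Level of 8 chaperone, ERAD and related genes in each library (CPM, log axis; points are libraries, black lines the mean of 4) for DC other, DC goblet, Si8 other and Si8 goblet cells. Canx, Syvn1 and Wfs1 are higher in goblet cells in the colon and overlap or run lower in Si8, and Herpud1 is highest in DC goblet cells (491 to 726 CPM).

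All 11 ERAD genes were higher in DC goblet cells, 4 of them with a log2 of 1 or more, and in Si8 8 of 11 were higher and 1 was lower. Among all genes, 27.8% were higher in DC, 9.16% with a log2 of 1 or more. In Si8 33.1% were higher and 31.8% lower. Herpud1 (chr8:94386438-94395377), a membrane protein of the ERAD complex with both CARE and ERSE-II in its promoter, had the highest level per kilobase of the list in both goblet sorts. It had 184, 184, 153 and 150.2 CPM in DC other and 726, 652, 491 and 698 in DC goblet cells, and 135, 165, 161 and 137 in Si8 other and 289, 402, 372 and 367 in Si8 goblet cells. The other-cell groups of the 2 regions overlapped, and every goblet library was above them, with log2 fold changes of 1.94 ± 0.13 in DC and 1.26 ± 0.13 in Si8 (adjusted p = 1.33e-10 and 4.52e-08). Among the mannosidase-like EDEM proteins, which mark misfolded glycoproteins for degradation, the 3 genes changed by different amounts. Edem3 rose by 1.36 ± 0.09 in DC and 1.54 ± 0.09 in Si8, Edem2 by 1.29 ± 0.08 and 0.99 ± 0.07, and Edem1 by 0.55 ± 0.10 and 0.26 ± 0.09. Per kilobase of exon, the level of Edem3 was a median of 0.636 of that of Edem1 in DC other cells and 0.480 in Si8 other cells, and 1.09 and 1.16 in DC goblet and Si8 goblet cells. With the length of the longest transcript the groups had the same order. The Si8 call of Edem1 was lost with DESeq2 (adjusted p = 0.0868) and without Si8 other library 1 or 3 or Si8 goblet library 6 or 8 (adjusted p from 0.0501 to 0.0823).

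Syvn1 (chr19:6046576-6053712), the ubiquitin ligase HRD1, had 32.0, 36.7, 28.3 and 31.4 CPM in DC other and 62.0, 58.9, 49.5 and 58.9 in DC goblet cells, and 92.1, 95.3, 127 and 144 in Si8 other and 71.1, 98.5, 93.8 and 91.7 in Si8 goblet cells. It was higher in DC goblet cells without overlap (log2 0.84 ± 0.14, adjusted p = 4.75e-05). In Si8 it was lower, with overlapping libraries (log2 -0.37 ± 0.13, adjusted p = 0.0214), and this call was lost without Si8 other library 5 or 7 or Si8 goblet library 2 (adjusted p = 0.0638, 0.103 and 0.0786). Its partner Sel1l rose by 0.30 ± 0.10 in DC, a call lost without DC other library 12 (adjusted p = 0.0534), and did not pass in Si8 (0.12 ± 0.10, adjusted p = 0.306). Of the lectins that hand glycoproteins to this ligase, Os9 rose by 0.31 ± 0.07 in DC and was at -0.03 ± 0.07 in Si8 (adjusted p = 0.687), while Erlec1 rose in both, by 0.83 ± 0.10 and 0.71 ± 0.10. The derlins form part of the membrane channel. Derl1 rose by 0.36 ± 0.07 in DC and 0.19 ± 0.07 in Si8 and Derl2 by 0.65 ± 0.09 and 0.23 ± 0.09, and both Si8 calls were lost with DESeq2 (adjusted p = 0.0779 and 0.127). Leaving out single libraries also ended them, with adjusted p from 0.0543 to 0.0856 for Derl1 without Si8 other library 7 or Si8 goblet library 2 or 6, and from 0.0554 to 0.103 for Derl2 without Si8 other library 3 or 5 or Si8 goblet library 2, 6 or 8. Derl3, the derlin known from secretory cells, had only 7, 1, 2 and 4 counts in DC other and 26, 17, 9 and 11 in DC goblet libraries, and 16, 24, 30 and 19 in Si8 other and 52, 80, 71 and 89 in Si8 goblet libraries. It rose by 2.06 ± 0.46 in DC (adjusted p = 8.57e-04) and 1.57 ± 0.29 in Si8 (adjusted p = 9.65e-05), yet its level per kilobase stayed far under that of Derl1, which was a median of 68.3 times that of Derl3 in DC goblet and 29.9 times in Si8 goblet cells. In a fit of the 2 DC groups alone, Derl3 fell below the filter on low counts and was not tested.

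Wfs1 (chr5:36966104-36989205), which encodes wolframin, an ER membrane protein of calcium handling, was higher in goblet cells of the colon and lower in those of Si8. It had 6.46, 5.50, 6.12 and 4.71 CPM in DC other and 11.5, 10.8, 12.2 and 9.48 in DC goblet cells, and 21.7, 17.3, 21.4 and 22.5 in Si8 other and 14.8, 15.1, 17.6 and 15.5 in Si8 goblet cells. The DC sorts did not overlap (log2 0.95 ± 0.12, adjusted p = 2.08e-06). In Si8 the goblet cells were lower, with the lowest other-cell library inside the goblet range (log2 -0.40 ± 0.11, adjusted p = 0.00328). The difference between the 2 changes was 1.34 ± 0.16 (adjusted p = 3.04e-06).

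The change from other cells to goblet cells was tested for a difference between the regions. It was larger in DC for 18 of the 36 genes, with 15.6% of all genes called in that direction, and smaller in DC for 2 (Ern2 and Stc2), with 16.5% of all genes called in that direction. The median difference was 0.35 over the 36 genes and -0.03 over all genes. Of the chaperones 8 of 11 were among the 18. Hyou1 was at 1.03 ± 0.15, Creld2 at 0.95 ± 0.22, Manf at 0.88 ± 0.14 and Canx at 0.79 ± 0.12. Dnajc3 was at 0.66 ± 0.14, Calr at 0.64 ± 0.17, Hsp90b1 at 0.55 ± 0.13 and Dnajb11 at 0.30 ± 0.11. Hspa5 (0.38 ± 0.19, adjusted p = 0.133), Sdf2l1 (0.41 ± 0.17, adjusted p = 0.0809) and Dnajb9 (-0.42 ± 0.18, adjusted p = 0.0848) did not pass. Each of these 3 passed with no filter on low counts (0.35, 0.38 and -0.45, adjusted p = 0.0366, 0.0441 and 0.00833). Each also passed with the block of adjacent library numbers (0.39, 0.42 and -0.40, adjusted p = 0.00825, 0.000929 and 0.0106). Hspa5 passed on total counts as well (0.47, adjusted p = 0.0343). Of the ERAD genes 5 of 11 were larger in DC, Syvn1 (1.21 ± 0.19), Herpud1 (0.68 ± 0.18), Derl2 (0.43 ± 0.13), Os9 (0.34 ± 0.10) and Edem2 (0.30 ± 0.11). Of the sensors, Xbp1 (0.95 ± 0.12, adjusted p = 3.05e-06) and Ern1 (0.36 ± 0.10, adjusted p = 0.00937) were larger in DC and Ern2 was smaller (-3.12 ± 0.27, adjusted p = 1.40e-07). For Eif2ak3 the difference was -0.17 ± 0.21 (adjusted p = 0.58) and for Atf6 0.08 ± 0.09 (adjusted p = 0.578). In the ATF4 branch, Trib3 and Chac1 (1.45 ± 0.45, adjusted p = 0.0196) were larger in DC and Stc2 was smaller (-2.88 ± 0.29, adjusted p = 2.56e-07). The weakest of these calls depended on single libraries. That of Dnajb11 was lost without any of DC other libraries 12, 14 and 17, DC goblet 9, 13 and 18, Si8 other 1 and 5 and Si8 goblet 2 and 4 (adjusted p from 0.0559 to 0.219). That of Edem2 was lost without any of DC other 12 and 17, DC goblet 9 and 13, Si8 other 3 and 5 and Si8 goblet 2 and 4 (adjusted p from 0.0569 to 0.21). Without DC other library 12 those of Os9 and Derl2 were also lost (adjusted p = 0.0734 and 0.068), and without DC other library 14 that of Chac1 (adjusted p = 0.0546). With no filter on low counts those of Ern1, Chac1, Dnajb11, Edem2 and Os9 did not pass (adjusted p = 0.0908, 0.0702, 0.175, 0.227 and 0.101). Without the mitochondrially encoded genes those of Dnajb11 and Edem2 did not (adjusted p = 0.101 and 0.0846). The same measure passed the test for Sdf2l1 without DC other library 10 or 14 (adjusted p = 0.0306 and 0.0446), for Edem1 without Si8 other library 3 or Si8 goblet library 6 (adjusted p = 0.0352 and 0.0418) and for Dnajb9 without DC other library 14 or Si8 goblet library 4 (adjusted p = 0.0440 and 0.0378). Edem1 also passed on total counts (0.36, adjusted p = 0.0115). With the block, 22 members were larger in DC, as Hspa5, Sdf2l1, Edem1 (0.29, adjusted p = 0.00835) and Atf4 (0.29, adjusted p = 0.00862) joined the 18. With it 4 were smaller, as Dnajb9 and Ppp1r15a (-0.31, adjusted p = 0.0174) joined Ern2 and Stc2. Calls over all genes rose too: of the 16001 tested, 6922 differences passed with the block and 5133 without it.

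The regions were also compared within each sort, in the same libraries. Between the other cells, 26 of 36 genes were lower in DC than in Si8 and 6 were higher, where 33.6% of all genes were called lower and 33.3% higher. The median log2 fold change was -0.64 over the 36 genes and 0.00 over all genes. Of the 36, 11 were lower with a log2 of -1 or less, against 15.8% of all genes. Between the goblet cells 20 were lower in DC and 8 were higher, where 31.5% of all genes were called lower and 30.6% higher, with a median of -0.21 over the 36 genes and -0.02 over all genes. Of the 11 chaperones 10 were lower in DC other than in Si8 other cells, 6 of them with a log2 of -1 or less, and 7 were lower in DC goblet than in Si8 goblet cells, none with a log2 of -1 or less. Hyou1 had -1.64 ± 0.11 between the other cells and -0.61 ± 0.11 between the goblet cells, Calr had -1.30 ± 0.12 and -0.66 ± 0.12, and Canx -1.21 ± 0.09 and -0.41 ± 0.09. Hspa5 was lower in DC other cells (-0.53 ± 0.13, adjusted p = 0.00164; on total counts -0.26, adjusted p = 0.0520) and did not pass between the goblet cells (-0.15 ± 0.13, adjusted p = 0.339). The ERAD genes ran the same way, 9 of 11 lower in DC other cells and 8 of 11 lower in DC goblet cells, with Syvn1 at -1.84 ± 0.14 and -0.63 ± 0.14. Wfs1 had -1.86 ± 0.12 and -0.51 ± 0.11.

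Some members were higher in the colon. In goblet cells these were Ern1 (0.24 ± 0.07), Ern2, Xbp1 (0.32 ± 0.08, adjusted p = 0.00227), Atf4 (0.55 ± 0.13, adjusted p = 0.00141), Ppp1r15a, Stc2 (3.12 ± 0.15), Herpud1 (0.84 ± 0.12, adjusted p = 8.23e-06) and Erlec1 (0.51 ± 0.10). With no filter on low counts the value of Ern1 was 0.18 and did not pass (adjusted p = 0.155). In other cells they were Ern2, Stc2 (6.00 ± 0.22, adjusted p = 8.48e-15), Ppp1r15a, Dnajb9 (0.68 ± 0.13, adjusted p = 9.71e-05), Erlec1 (0.39 ± 0.10) and Eif2ak3 (0.36 ± 0.15, adjusted p = 0.0442). Xbp1 was lower in DC other cells than in Si8 other cells (-0.63 ± 0.08, adjusted p = 1.31e-06) and higher in DC goblet than in Si8 goblet cells. The Eif2ak3 call was lost without any of 7 libraries (DC other 10, 12 and 17, DC goblet 11 and 18, Si8 other 1 and 3, adjusted p from 0.0507 to 0.107), with DESeq2 (adjusted p = 0.0906) and with DESeq2-type factors in edgeR (adjusted p = 0.0808). Among the genes lower in DC, that of Hsp90b1 in goblet cells (-0.24 ± 0.10) was lost without DC goblet 11, 13 or 18, Si8 other 7 or Si8 goblet 6 or 8 (adjusted p from 0.0507 to 0.129), and that of Dnajb11 (-0.22 ± 0.08) without DC goblet 11 or Si8 goblet 6 or 8 (adjusted p from 0.0716 to 0.103). On total counts the values of Hsp90b1 and Dnajb11 were above 0 (0.11 and 0.13). There the goblet calls of Canx (-0.073, adjusted p = 0.598), Wfs1 (-0.16, adjusted p = 0.252), Edem1, Edem2, Edem3 and Atf6b were also lost. Eif2ak3, Ddit3 and Dnajb9 passed there as higher in DC goblet cells. The goblet call of Derl1 was lost without DC goblet 18 or Si8 goblet 2, and that of Os9 without Si8 goblet 6. Counted over the fits that left out a single library, calls between the goblet cells were lost 16 times and gained 6 times. The losses were those of Hsp90b1, Ern2, Dnajb11, Derl1 and Os9, and the gains those of Dnajb9, Dnajc3, Atf6 and Eif2ak3. All other members kept their goblet calls in each of these fits. The regional counts depend on the scaling: on total counts with no composition factor the median of all genes moved by 0.34 in goblet cells and 0.27 in other cells, and 12 members were then higher and 10 lower in DC goblet cells and 9 higher and 22 lower in DC other cells. Depth and mitochondrial counts differed between the regions, as given above, and their part was not tested beyond leaving out the mitochondrial genes, which left the counts at 8 and 20 in goblet cells and 6 and 26 in other cells.

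**Figure D5:**
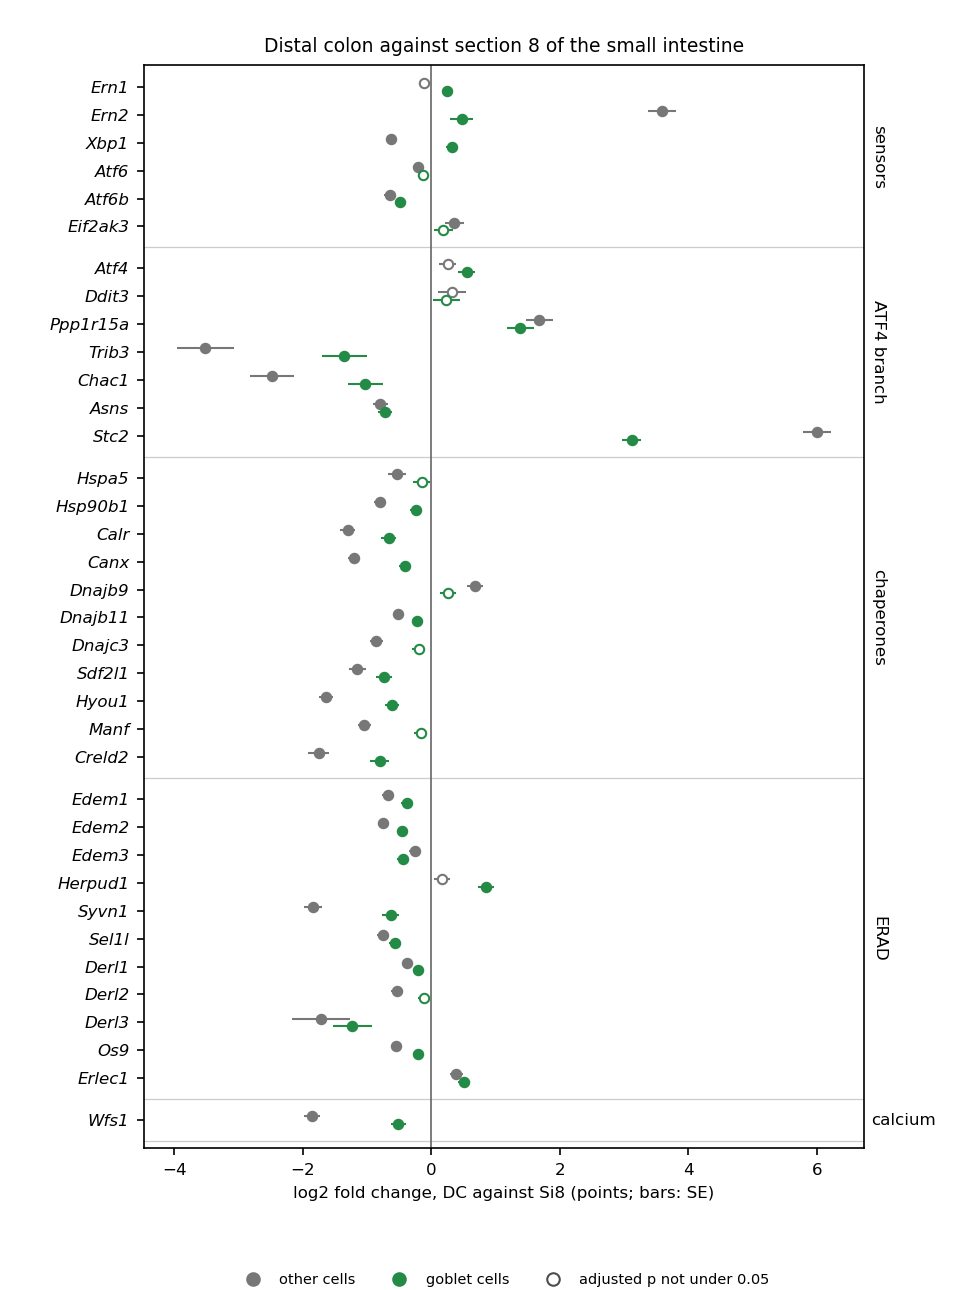
Log2 fold change of the distal colon against section 8 of the small intestine for each of the 36 genes (points, with bars of 1 SE), in other epithelial cells (grey) and in goblet cells (green); open points did not reach an adjusted p under 0.05. Of the 11 chaperones 10 lie below 0 in other cells, and their goblet points lie nearer to 0.

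Per kilobase of exon, the most abundant of the 36 mRNAs in all 4 groups was Hspa5, followed by Calr. The level of Hspa5 was 256 ± 30.8 CPM per kb in DC other, 553 ± 87.0 in DC goblet, 371 ± 41.0 in Si8 other and 614 ± 100.5 in Si8 goblet cells (mean and SD of 4). Hsp90b1, Canx and Atf4 were among the first 6 in each group. Herpud1 was the 4th most abundant in DC goblet cells, at 275 CPM per kb, and the 8th in Si8 other cells, at 64.0. Ern2 moved the most, from the 34th place in Si8 other cells (1.09 CPM per kb) to the 8th in DC goblet cells (119). The lowest levels were those of Derl3 in DC (0.0995 and 0.438 CPM per kb in other and goblet cells) and of Stc2 in Si8 (0.0448 and 0.845). With the length of the longest transcript, Calr came before Hspa5 in the 2 Si8 groups.

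Read against the promoters printed above, all 8 members with an ERSE were higher in DC goblet cells, with a median log2 fold change of 1.19. Of all 36 members 34 were higher there, with a median of 1.11, and of all genes 27.8% were higher and 27.9% lower. In Si8, 6 of the 8 were higher, Syvn1 was lower and Canx did not pass, with a median of 0.67. Of all 36 members 28 were higher in Si8, with a median of 0.59, and of all genes 33.1% were higher and 31.8% lower. Dnajc3 and Syvn1 both carry an ERSE and had opposite signs in Si8. Outside the 36 genes, 29 other genes held an ERSE match and 12 of these were tested. Of the 12, 6 were higher and 1 was lower in DC goblet cells, and 5 and 1 in Si8 goblet cells. They include Pdia6, a protein disulfide isomerase, with log2 fold changes of 2.04 in DC and 1.47 in Si8. All 4 members with a CARE were higher in DC goblet cells, with a median of 2.01, and 3 of 4 in Si8, all but Trib3. Of 284 tested genes outside the list with a CARE match, 82 were higher and 93 lower in DC goblet cells, and 102 and 105 in Si8 goblet cells. Herpud1 and Dnajb11, with ERSE-II, and Hspa5, with the UPRE core, were higher in both regions. Of 6 tested genes outside the list with ERSE-II, 2 were higher and 1 lower in DC, and 2 and 3 in Si8. Of 347 with the UPRE core, 137 were higher and 77 lower in DC, and 145 and 102 in Si8.

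Other genes of the pathway were counted on lists of their own. Each count is read against the 27.8% higher and 27.9% lower of all genes in DC and the 33.1% and 31.8% in Si8. All 25 genes of the translocon, signal peptidase and oligosaccharyltransferase, which bring new chains into the ER and glycosylate them, were higher in DC goblet cells, 22 with a log2 of 1 or more, and 24 of 25 in Si8, 7 with a log2 of 1 or more. The largest in DC were Ostc (1.85 ± 0.12), Serp1 (1.70 ± 0.10) and Rpn1 (1.58 ± 0.10), and in Si8 Sec11c (1.63 ± 0.10), Ssr4 (1.17 ± 0.10) and Serp1 (1.17 ± 0.10). Of 20 other ER chaperones and exchange factors tested, 15 were higher and 1 lower in DC and 14 higher and 2 lower in Si8. Among those with a mean of 10 CPM or more in goblet cells, the 3 that rose most in each region were Fkbp11 (4.18 ± 0.17 in DC and 4.04 ± 0.15 in Si8), Dnajc10, the ER disulfide reductase ERdj5 (3.10 ± 0.11 and 2.69 ± 0.11), and the BiP exchange factor Sil1 (1.49 ± 0.09 and 1.46 ± 0.09). Dnajc10 had a mean of 62.6 ± 5.79 CPM in DC other and 537 ± 31.4 in DC goblet cells (SD, n = 4 libraries). In this list Dnajb12 was lower in both (-0.28 ± 0.09 and -0.70 ± 0.09) and Creld1 in Si8 (-0.52 ± 0.14).

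Of 23 other ERAD genes, 12 were higher and 4 lower in DC, with a median log2 fold change of 0.22, where 27.8% of all genes were called higher and 27.9% lower. In Si8, 8 were higher and 6 lower, with a median of 0.10, close to the 33.1% and 31.8% of all genes. Selenos, a selenoprotein of the ERAD complex, rose the most in both (1.48 ± 0.09 and 1.22 ± 0.08), with Selenok (0.89 ± 0.12) and Hm13 (0.87 ± 0.07) next in DC and Ube2g2 (0.81 ± 0.09) and Hm13 (0.77 ± 0.07) in Si8. Fam8a1 (-0.37 ± 0.09 and -0.72 ± 0.09) and Bag6 (-0.32 ± 0.08 and -0.58 ± 0.08) were lower in both, Ube2j2 in DC (-0.28 ± 0.07) and Ubac2 in Si8 (-0.33 ± 0.07). Another list held membrane-bound transcription factors that are cut like ATF6, together with the proteases that cut them, Mbtps1 and Mbtps2. Of its 7 genes 5 were higher in DC and 4 in Si8, and 1 was lower in each. Creb3l4 rose the most, by 5.41 ± 0.24 in DC and 5.41 ± 0.24 in Si8, followed by Creb3l1 (1.89 ± 0.13 and 4.31 ± 0.14) and Creb3l2 (0.73 ± 0.19 and 1.46 ± 0.17). Creb3l3, a factor of enterocytes and liver, was lower in both (-5.64 ± 0.66 and -4.48 ± 0.32).

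Of 28 further ATF4 targets, 16 were higher and 2 lower in DC and 21 higher and 3 lower in Si8. Pycr1, of proline synthesis, rose in both (3.92 ± 0.17 and 4.40 ± 0.17), as did Nupr1, a stress-induced chromatin protein (1.83 ± 0.21 and 5.10 ± 0.26), while the cystine transporter Slc7a11 was the second in DC (2.05 ± 0.19) and Gpt2 the third in Si8 (4.25 ± 0.15). Cth (-0.86 ± 0.10) and Cebpg (-0.43 ± 0.09) were lower in DC and Slc3a2 (-0.91 ± 0.12) and Sesn2 (-0.71 ± 0.14) in Si8. Of 6 other genes of the eIF2α kinases and phosphatase, Eif2ak4, which encodes the amino acid sensor GCN2, was higher in both regions (0.89 ± 0.10 and 2.11 ± 0.11) and so was Eif2s1, eIF2α itself (0.31 ± 0.10 and 0.51 ± 0.10). Eif2ak1 was lower in both (-0.35 ± 0.07 and -0.48 ± 0.07) and Eif2ak2 in Si8 (-0.30 ± 0.08). In all, 2 of the 6 were higher and 2 lower in DC and 2 higher and 3 lower in Si8. Of 7 ER-phagy receptors 3 were higher and 2 lower in DC and 3 higher and 3 lower in Si8. Sec62, which is also on the translocon list, was higher (1.20 ± 0.07 and 0.98 ± 0.07), as was Retreg1 (0.71 ± 0.10 and 1.93 ± 0.11). Calcoco1 (-0.61 ± 0.16 and -0.91 ± 0.15) and Tex264 (-0.22 ± 0.08 and -0.29 ± 0.08) were lower. Of 10 partners of IRE1 and death genes of ER stress, 2 were higher and 3 lower in DC and 2 higher and 5 lower in Si8. Map3k5, the kinase ASK1 that IRE1 engages, was higher (0.57 ± 0.07 and 0.36 ± 0.07), as was Rtcb, the ligase that joins the ends of Xbp1 mRNA (0.22 ± 0.07 and 0.33 ± 0.07). The pro-apoptotic genes Bcl2l11 (-1.08 ± 0.16 and -0.62 ± 0.15) and Bak1 (-0.85 ± 0.10 and -0.52 ± 0.09) were lower in goblet cells of both regions, and Tmbim6, which encodes BAX inhibitor 1, in Si8 (-0.47 ± 0.09).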

How the data were processed

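The authors deposited raw gene counts for the distal colon and for section 8 of the small intestine, 1 column per library. Libraries were made with a stranded total RNA kit after removal of ribosomal RNA and read in pairs, per the labels' protocols. Per the submitters' processing notes, the reads were handled on the build mm10 with STAR 2.4.0f, FastQC 0.11.2, DESeq2 1.14 and HTSeq 0.6.1p1, listed with no order. Neither the annotation nor the strand setting of the counting is given in the sources used here.

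The 2 tables, each of 46882 rows, were joined by symbol, leaving out 4 rows with a repeated symbol. Date-like names stand in for 27 symbols, none of them a member. Groups came from the sample titles and cell type labels. The robust quasi-likelihood F test of edgeR 4.0.16 (R 4.3.3) was run in 1 fit of all 4 groups, after filterByExpr and with TMM factors (16001 genes tested, common biological coefficient of variation 0.128), with 5 contrasts. The SE is the log2 fold change divided by the square root of F. Levels per kilobase divide CPM by the merged exons of GENCODE M21 on GRCm38. Total counts per library were 11915081 to 18530171 in DC and 30839377 to 41075589 in Si8. Replicate libraries of a group differed by more than sampling noise in chi-square tests of their counts. The fitting code was tested on simulated counts.

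The members, the pathway lists and the marker lists were chosen with earlier results of these data known. Members are described by role. From each other pathway list, up to 3 genes that rose most and up to 3 that fell most are named for each goblet contrast, provided that the gene was called, averaged 10 CPM or more where it was higher, and had libraries that did not overlap between the groups. Pdia6, and Creb3l3 in DC, where its mean stayed under 10 CPM, were named after their values were seen. The alternatives were DESeq2 1.42.0, other scaling factors, no filter, fits of 2 groups, leaving out mitochondrially encoded genes, a block of adjacent library numbers and leaving out each library. The labels state no pairing. Deviations of adjacent libraries from their group means, over 2000 genes, correlated at 0.17 to 0.77. In Si8 every other-cell library correlated best with the goblet library of adjacent number (0.52 to 0.77). In DC libraries 14 and 17 did so (0.68 and 0.48), while libraries 10 and 12 correlated better with a library that was not adjacent. Whether adjacent numbers mark pairs is thus not settled, most of all in DC. The main test ignores any such pairing, and the block is an alternative.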

Additional observations from a re-analysis of the deposited data

Results flagged for a closer look

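In 7 of 144 groups of 4 libraries (36 genes in 4 groups), the highest or lowest library lay apart from the other 3 by more of the group's range, on the log2 scale, than Dixon's 95% limit allows. Chance alone gives about 1 group in 20. Atf4 was low in DC other library 14 (241 CPM), Ppp1r15a in DC goblet library 13 (104 CPM) and Ddit3 in Si8 other library 1 (21.7 CPM), the libraries with the lowest summed early response genes of their groups. Derl2 stood apart in DC goblet library 13 (54.5 CPM), Sdf2l1 in Si8 other library 5 (57.8 CPM) and in Si8 goblet library 4 (88.5 CPM), and Derl3 in Si8 other library 5 (0.975 CPM).

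The change from other to goblet cells differed between the colon and Si8 for 20 of 36 genes by the interaction term of edgeR's quasi-likelihood fit, as given in the report. As log2 differences, DC minus Si8, these were -3.12 for Ern2 and -2.88 for Stc2, whose change was smaller in the colon. Among the others, Trib3 had 2.17, Chac1 1.45, Wfs1 1.34, Syvn1 1.21, Hyou1 1.03, Xbp1 0.95, Creld2 0.95, Manf 0.88 and Canx 0.79. The remaining differences were 0.68 for Herpud1, 0.66 for Dnajc3, 0.64 for Calr, 0.55 for Hsp90b1, 0.43 for Derl2, 0.36 for Ern1, 0.34 for Os9, 0.30 for Dnajb11 and 0.30 for Edem2.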

How the results depend on the processing

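Over all alternatives, 3867 log2 fold changes of single members kept their direction and side of the threshold, 98 fell below it and 44 rose above it. A further 15 that passed in neither fit changed sign, and so did 7 that passed in at least 1 of the fits. Those 7 came with total counts and no composition factor, which moved the median of all genes by 0.34 in goblet cells and 0.27 in other cells between the regions. They were Atf6 (0.23), Hsp90b1 (0.11), Dnajb11 (0.13), Derl1 (0.13) and Os9 (0.15) between the goblet cells, and Atf6 (0.072) and Edem3 (0.017) between the other cells. That scaling left 10 members lower in DC goblet cells in place of 20. With only the 2 groups of a contrast fitted, 1 member was lower in Si8 goblet cells in place of 2 (Syvn1, -0.36, adjusted p = 0.0534). In DC that fit tested 35 members, without Derl3, and their calls stayed the same. With the replicate block of adjacent library numbers, 1 member was lower in DC goblet cells in place of 0 (Ppp1r15a), and 4 in place of 2 had a smaller goblet change in DC; the calls of Canx and Dnajb9 in Si8 and of Atf4, Ppp1r15a, Hspa5, Dnajb9, Sdf2l1 and Edem1 in the difference between regions also changed, and no others of the members did. Over all genes the block raised the calls from 8911 to 10028 in DC and from 10383 to 11390 in Si8. For the difference between regions they rose from 5133 to 6922. The causes were not tested. Leaving out each library in turn gave 33 to 34 members higher and 0 lower in DC goblet cells, 25 to 28 higher and 1 to 2 lower in Si8 goblet cells, 7 to 9 higher and 17 to 22 lower in DC against Si8 goblet cells, 5 to 7 and 25 to 26 in other cells, and 14 to 19 larger and 2 to 3 smaller goblet changes in DC. The count of 1 in Si8 came without Si8 other library 7, which ended the call of Syvn1. DESeq2 gave 24 higher and 3 lower in Si8 and 34 higher in DC. Depth limits Trib3 and Derl3 in DC, Chac1 in DC other cells and Stc2 in Si8 other cells, at 1 to 37 counts a library.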

Other observations

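The ER-phagy receptors, which link parts of the ER to autophagy, were higher in the colon in both sorts. All 7 genes of the list were higher in DC than in Si8 both in goblet cells, with a median log2 fold change of 0.82, and in other cells, with a median of 0.62. The 25 genes of the translocon, signal peptidase and oligosaccharyltransferase went the other way in other cells, 19 lower and 2 higher in DC, with a median of -0.59, and in goblet cells 12 were lower and 2 higher, with a median of -0.18. Sec62 is on this list and also on that of the ER-phagy receptors. For 13 of these 25 the goblet change was larger in DC and for 1 it was smaller. Of the 28 further ATF4 targets, 17 were lower and 8 higher in DC goblet than in Si8 goblet cells, and 13 were lower and 9 higher in DC other than in Si8 other cells. Of all genes 30.6% were higher and 31.5% lower in DC between the goblet cells, and 33.3% and 33.6% between the other cells. The goblet change was larger in DC for 15.6% of all genes and smaller for 16.5%. On total counts the median of all genes moved by 0.34 in goblet cells and 0.27 in other cells. These lists were not run with that scaling.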
